A study of Homo sapiens with 4 samples.

Results

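The genes described here are secreted, mucus and mucosal surface genes of epithelia, in LNCaP cells that overexpress the ETS-family transcription factor ETV5. LNCaP is a human prostate cancer cell line derived from a metastasis. The names AGR2, AGR3, FCGBP, SLPI, PIGR, LCN2, TM4SF1, MUC4, MUC20 and MUC1 were matched to the gene symbols of the deposited table. Of these 10 genes, 8 have a row among the 17902 genes listed, and all 8 passed the filter on low counts. AGR3 and MUC1 were not analysed here. The genes were chosen with earlier results of these same libraries in view, several of them because they were higher with ETV5. Their differences between the groups are therefore given as a description and are not independent support for a rise of the group.

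RNA was sequenced as paired ends from 2 libraries of ETV5-overexpressing cells (genotype label ETV5 overexpression, here ETV5_OE) and 2 libraries of control cells (genotype label WT, here Control). The labels give no other allele, agent or time, and whether the control cells carry an empty vector, whether a clone or a pool was used, and what separates the replicates are not given in the sources used here. The submitters name the ETV5_OE libraries 50E-1 and 50E-1R and the Control libraries con-1R and con-2, and the shared number leaves it unknown whether both ETV5_OE libraries come from 1 culture. Counts of the libraries of a group differed by more than sampling noise, with a chi-square per degree of freedom of 32.7 in ETV5_OE and 43.7 in Control over 16194 genes. Each p-value computed here thus rests on how far libraries of a group lie apart, a spread that may be technical. That spread is estimated partly from all genes together and not from the gene's own values alone. The comparison asks which genes change when ETV5 is raised, within work on how treated prostate cancers take on neuroendocrine features.

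A mucosal epithelium covers itself with a gel of secreted glycoproteins and with tethered mucins on the cell surface. Secretory cells fold these cysteine-rich proteins in the endoplasmic reticulum, decorate them with O-linked sugars, and release them together with protease inhibitors, iron-sequestering proteins and transported antibodies that limit microbes. The luminal cells of the prostate are themselves a secretory epithelium, although their main products are proteases and not mucus.

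Total counts were 22369062 and 24642392 in the ETV5_OE libraries, and 30227070 and 20639543 in the Control libraries. Levels are given as CPM, which are read counts divided by the library total after scaling by the trimmed mean of M values (TMM), or as the deposited FPKM, which also divide by transcript length. ETV5 stood at 23.9 and 21.8 CPM in the ETV5_OE libraries, against 0.718 and 1.29 CPM in the Control libraries. All 9 luminal prostate markers searched were measured, with KLK3 at 2105 and 2396 CPM in ETV5_OE and at 3427 and 3732 CPM in Control (adjusted p = 0.214). The 9 markers summed to 5317 and 5875 CPM in ETV5_OE and to 7477 and 7867 CPM in Control. Their median log2 fold change was -0.64. None passed the edgeR test after adjustment, but 5 of the 9 had an unadjusted p under 0.05, where 7.14% of all genes tested did. The groups did not overlap for 5 markers as lower in ETV5_OE and for 1 as higher, where 18.8% of all genes did in each direction. Of 6 basal markers, DST and ITGA6 were measured, while KRT5, KRT14, KRT15 and TP63 were not analysed here.

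With edgeR, 65 of 16194 genes tested passed an adjusted p of 0.05, which is 0.401% of them, and 0.253% passed as higher in ETV5_OE. Among the 8 mucosal genes, 4 passed, all as higher: AGR2, FCGBP, SLPI and TM4SF1. PIGR, LCN2, MUC4 and MUC20 did not pass. The median log2 fold change of the 8 genes was 1.64, against 0.00 over all genes tested. Since the genes were chosen on this contrast, nothing is read from that count or from that median. In bulk RNA, more cells that express a gene and more RNA per cell cannot be told apart.

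**Figure D1:**
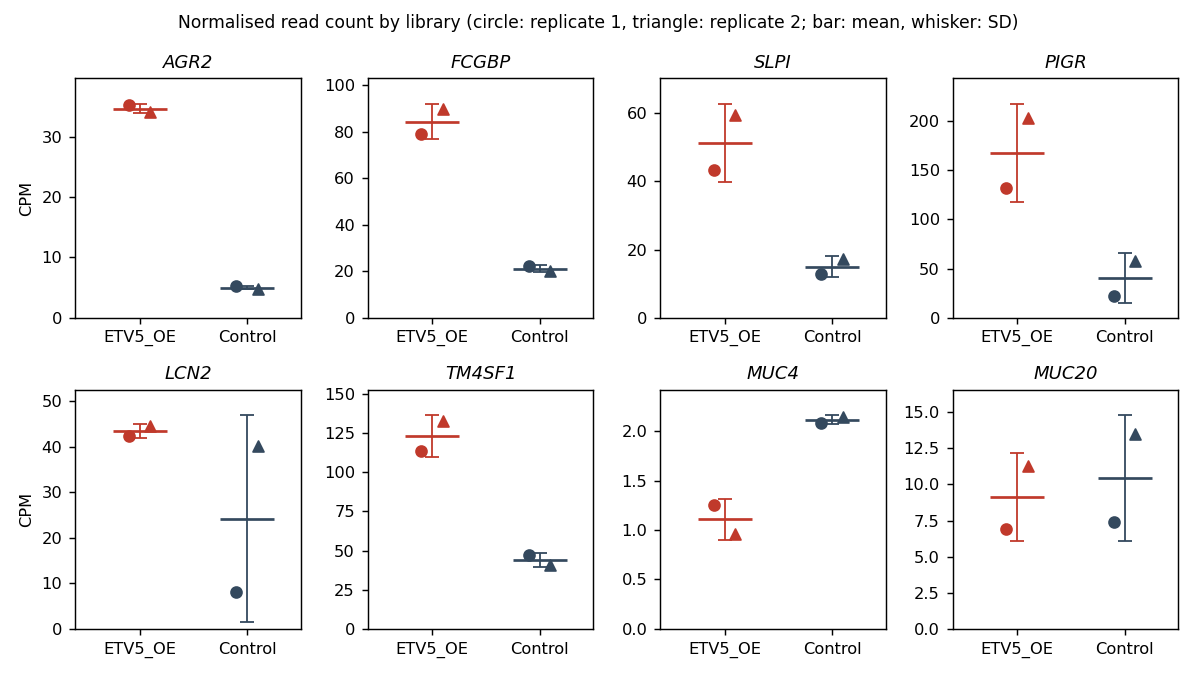
Normalised read count in CPM (vertical axis, linear from 0) of each gene in the 2 ETV5_OE and the 2 Control libraries. The bar is the mean and the whisker the SD (n = 2). AGR2, FCGBP, SLPI, TM4SF1 and PIGR lie higher in both ETV5_OE libraries, LCN2 is low in Control replicate 1 alone, and MUC20 overlaps.

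The first group is the secretory machinery and the products released into mucus. AGR2, a protein disulfide isomerase of the endoplasmic reticulum that mucus-secreting cells need to produce mucins, had 788 and 821 counts in the ETV5_OE libraries, against 159 and 100 counts in the Control libraries. Those counts corresponded to 35.3 and 34.3 CPM in ETV5_OE and to 5.19 and 4.77 CPM in Control. The lowest ETV5_OE library exceeded the highest Control library 6.61-fold, and the libraries of a group were close to each other. AGR2 rose 6.97-fold (log2 fold change 2.80, SE 0.20, 95% interval 2.35 to 3.25, edgeR adjusted p = 0.00151). It ranked 5 by fold among the 41 called rises. Its position is 16791811 to 16804999 on chromosome 7 (ID 10551, GRCh38.p14), and all other positions here use the same build.

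FCGBP encodes a large secreted protein that goblet cells release into the mucus network. Its counts were 1762 and 2149 in the ETV5_OE libraries and 675 and 416 in the Control libraries, or 79.0 and 89.7 CPM in ETV5_OE and 22.0 and 19.9 CPM in Control. FCGBP rose 4.03-fold (log2 fold change 2.01, SE 0.16, 95% interval 1.64 to 2.38, adjusted p = 0.00252). Both ETV5_OE libraries were above both Control libraries, with a gap of 3.59-fold between the nearest ones. The gene (ID 8857) spans 39863323 to 39934634 on chromosome 19. Its coding sequence holds repeated domains, so the counts depend on how reads that match several repeats were placed.

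SLPI is a secreted inhibitor of neutrophil elastase that protects mucosal surfaces from proteolysis. It stood at 43.3 and 59.4 CPM in the ETV5_OE libraries, against 12.7 and 17.1 CPM in the Control libraries. The nearest libraries of the groups were 2.53-fold apart, and replicate 2 was the higher library in each group. SLPI rose 3.46-fold (log2 fold change 1.79, SE 0.23, 95% interval 1.26 to 2.32, adjusted p = 0.0266). The gene (ID 6590) is short, from 45252239 to 45254564 on chromosome 20.

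LCN2, a lipocalin that withholds iron from bacteria by binding their siderophores, showed a different layout. It stood at 42.5 and 44.6 CPM in the ETV5_OE libraries, against 8.12 and 40.3 CPM in the Control libraries. The ETV5_OE libraries lay above both controls, but the nearest pair differed 1.06-fold only, and the low value came from Control replicate 1. The fitted log2 fold change was 0.86 (SE 0.91, 95% interval -2.07 to 3.79, adjusted p = 0.934). Without Control replicate 1 it was 0.11, and without Control replicate 2 it was 2.42, so the value depended on which Control library was kept. With 2 Control libraries it cannot be told which of them is unusual. LCN2 (ID 3934) is at 128149453 to 128153453 on chromosome 9.

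The second group works at the cell surface. TM4SF1, a small multi-pass membrane protein found on many carcinomas, had 2535 and 3170 counts in the ETV5_OE libraries, against 1439 and 850 counts in the Control libraries. In CPM these were 114 and 132 in ETV5_OE, against 46.9 and 40.6 in Control, with 2.42-fold between the nearest libraries. TM4SF1 rose 2.81-fold (log2 fold change 1.49, SE 0.15, 95% interval 1.14 to 1.84, adjusted p = 0.00871). TM4SF1 (ID 4071) is at 149369022 to 149377649 on chromosome 3. An antisense gene, TM4SF1-AS1, overlaps it on the opposite strand in the GENCODE annotation, and starts 0.129 kb away in RefSeq. TM4SF1-AS1 stood at 1.79 and 1.75 CPM in ETV5_OE and at 0.554 and 0.143 CPM in Control (adjusted p = 0.409). Its counts were 40 and 42 in ETV5_OE and 17 and 3 in Control, few beside those of TM4SF1. No source used here states whether counting used strand, so reads from a stretch that both genes cover may have been counted for either.

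PIGR, the polymeric immunoglobulin receptor that carries IgA across the epithelium into secretions, stood at 132 and 203 CPM in the ETV5_OE libraries. Its Control libraries stood at 22.2 and 58.0 CPM. Both ETV5_OE libraries were above both Control libraries, 2.28-fold between the nearest, but the controls themselves differed 2.61-fold. The fitted log2 fold change was 2.07 (SE 0.61, 95% interval 0.20 to 3.93), a fold of 4.19, and it did not pass after adjustment over all genes (adjusted p = 0.660). Without Control replicate 2 it was 2.91 (adjusted p = 0.0247), and without Control replicate 1 it was 1.53 (adjusted p = 0.106). PIGR (ID 5284) is at 206928522 to 206946466 on chromosome 1.

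MUC4, a membrane mucin that binds the receptor ERBB2, was barely detected, with 28 and 23 counts in the ETV5_OE libraries and 64 and 45 counts in the Control libraries. In CPM these were 1.26 and 0.960 in ETV5_OE, against 2.09 and 2.15 in Control, both ETV5_OE libraries being lower. The log2 fold change was -0.93 (SE 0.46, 95% interval -1.99 to 0.13, adjusted p = 0.767). MUC20, a membrane mucin that interacts with the receptor MET, overlapped between the groups, at 6.95 and 11.3 CPM in ETV5_OE and 7.37 and 13.5 CPM in Control. Its log2 fold change was -0.19 (SE 0.37, 95% interval -1.05 to 0.67, adjusted p = 0.959). The intervals leave room for changes of either sign in both mucins. MUC20 (ID 200958; chromosome 3, 195720978 to 195733551) and MUC4 (ID 4585; 195746771 to 195811929) lie 13.2 kb apart. The tandem repeats of MUC4 and the neighbouring pseudogene copy MUC20P1 make their counts uncertain.

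Counting alone would give the AGR2 libraries a coefficient of variation of 3.53% in ETV5_OE and 9.02% in Control. The observed values were 2.13% in ETV5_OE and 5.88% in Control, so the AGR2 libraries of a group differed by no more than counting error. MUC4 also stayed within it, at 18.8% observed and 19.9% from counting in ETV5_OE, and at 2.01% observed and 13.8% from counting in Control. For the other genes the observed value was above counting error in each group, by the least for LCN2 in ETV5_OE (3.40% observed, 3.16% from counting). In Control it was 94.0% for LCN2, 63.0% for PIGR, 41.6% for MUC20 and 20.9% for SLPI, where counting gave 5.10%, 3.38%, 6.31% and 5.18%. A control difference as large as that of LCN2, 4.96-fold, was found in 1.06% of all genes tested, and one as large as that of PIGR in 4.97%. Between the ETV5_OE libraries LCN2 differed 1.05-fold and PIGR 1.53-fold.

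**Figure D2:**
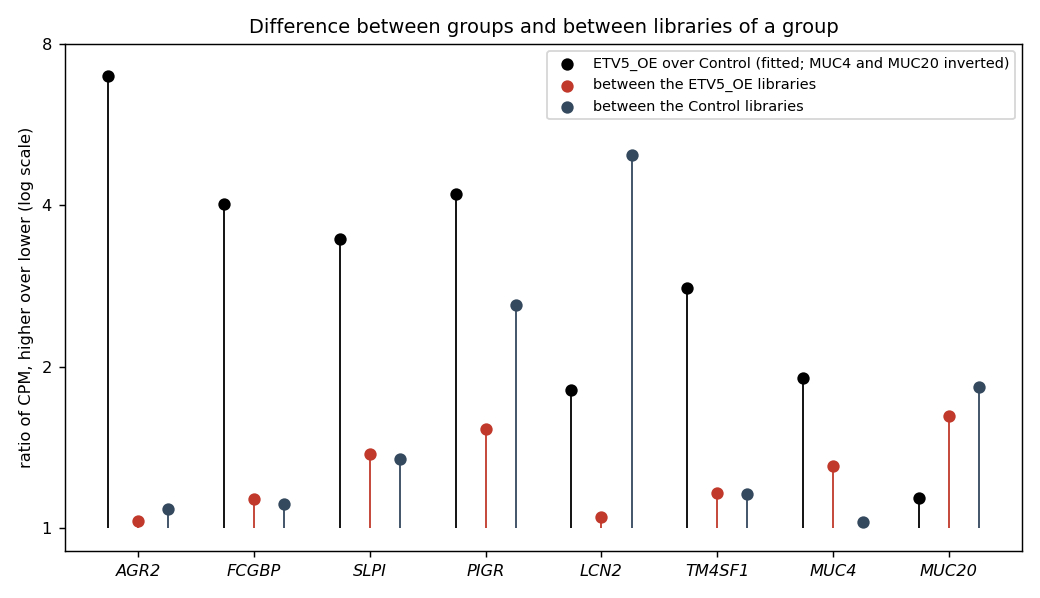
Ratio of CPM, higher over lower, on a log axis, for each gene: the fitted difference between ETV5_OE and Control (black), the difference between the ETV5_OE libraries (red) and between the Control libraries (blue). For AGR2 the groups differed 6.97-fold and the libraries of a group by 1.03-fold and 1.09-fold, while the LCN2 controls differed 4.96-fold, more than the groups did.

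The gap between the nearest libraries needs no model. In 5 of the 8 genes (AGR2, FCGBP, SLPI, TM4SF1 and PIGR) the lowest ETV5_OE library was at least 2 times the highest Control library, where 1.01% of all genes tested met this. None of the 8 met the reverse, with the highest ETV5_OE library at most 0.5 of the lowest Control library, where 0.648% of all genes did. The groups did not overlap for 7 of the 8 genes, where 37.6% of all genes did not, namely for 6 genes as higher (18.8% of all genes) and for MUC4 as lower (18.8%). A gap as large as that of AGR2 was found in 0.0432% of all genes and one as large as that of LCN2 in 13.1%. These shares come from the contrast that chose the genes and carry no separate weight.

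Levels can be compared between genes per transcript length. In ETV5_OE, the mean FPKM was 80.8 ± 16.5 for SLPI, 74.6 ± 6.83 for TM4SF1, 49.9 ± 0.761 for LCN2 and 36.8 ± 10.3 for PIGR (SD, n = 2). Below them came AGR2 at 19.3 ± 0.816, FCGBP at 6.18 ± 0.440, MUC20 at 3.42 ± 1.09 and MUC4 at 0.0619 ± 0.0126 FPKM. SLPI and TM4SF1 overlapped by library and the other neighbours in this order did not. In Control, the FPKM were 28.5 ± 26.9 for LCN2, 27.4 ± 2.71 for TM4SF1, 24.2 ± 5.08 for SLPI and 9.08 ± 5.73 for PIGR. MUC20 followed at 4.05 ± 1.69, AGR2 at 2.82 ± 0.167, FCGBP at 1.58 ± 0.114 and MUC4 at 0.121 ± 0.00209 FPKM. The Control libraries of LCN2 bracketed those of TM4SF1 and SLPI, and SLPI with TM4SF1, PIGR with MUC20 and MUC20 with AGR2 overlapped. FCGBP and MUC4 lay below AGR2 in every Control library. AGR2 and FCGBP lay above MUC20 in ETV5_OE and below its mean in Control. Summed over the 8 genes, the level was 246 and 296 FPKM in the ETV5_OE libraries, against 72.0 and 123 FPKM in the Control libraries.

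The authors' deposited table gives a signed linear fold, which equalled 2 to the power of the difference of its group means of log2 values, and an unadjusted p. AGR2 has a fold of 5.44 there, in the authors' deposited table (unadjusted p = 0.000365), FCGBP 2.84 (0.0190), SLPI 3.23 (0.0288) and TM4SF1 2.66 (0.00935). The authors' deposited table has PIGR at 4.05 (unadjusted p = 0.148) and LCN2 at 2.25 (0.484). For MUC4 the authors' deposited table has a fold of -1.06, meaning lower in ETV5_OE, with an unadjusted p of 0.0457, and for MUC20 -1.10 (0.797). The Control means in the authors' deposited table followed the mean of log2(FPKM + 1), within 0.1 for 100% of genes, a scale that understates the change of low genes such as MUC4.

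The 4 calls were recomputed with each library left out. Without ETV5_OE replicate 1, edgeR gave an adjusted p of 0.0551 for AGR2, 0.0551 for FCGBP, 0.120 for SLPI and 0.109 for TM4SF1. Without ETV5_OE replicate 2, AGR2 passed (adjusted p = 0.0423), while FCGBP (0.0684), SLPI (0.230) and TM4SF1 (0.162) did not. Without either Control library all 4 passed. Their log2 fold changes ran from 2.74 to 2.87 for AGR2, from 1.91 to 2.09 for FCGBP, from 1.54 to 2.02 for SLPI and from 1.37 to 1.60 for TM4SF1 over these fits. A lone library is assumed there to vary like the other group.

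**Figure D3:**
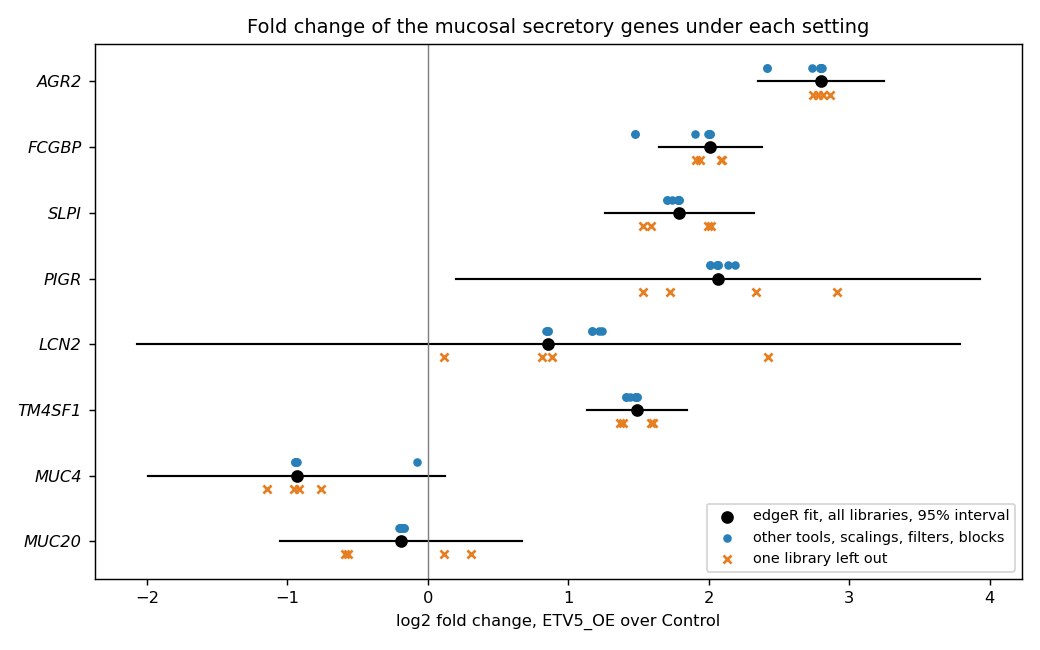
Log2 fold change of ETV5_OE over Control (horizontal axis) for each gene: the edgeR fit with its 95% interval in black, other tools, scalings and filters as blue dots, and fits with 1 library left out as orange crosses. AGR2, FCGBP, SLPI and TM4SF1 stay between 1.37 and 2.87, LCN2 runs from 0.11 to 2.42, and MUC20 crosses 0.

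The promoter windows of the 3 called genes that have one and of PIGR are printed here because these genes had at least 2-fold between their nearest libraries. Each covers 250 bases before to 50 after the gene start, 5′ to 3′ on the gene's own strand, from RefSeq (GRCh38.p14). The table of windows used here held 6 of the 8 genes, and windows of SLPI and MUC20 were not analysed here. Capitals mark the PEA3 motif AGGAAG in either orientation. The subgroup of ETS factors that holds ETV5 goes by the same name.
AGR2 promoter, chr7:16804950-16805249, minus strand: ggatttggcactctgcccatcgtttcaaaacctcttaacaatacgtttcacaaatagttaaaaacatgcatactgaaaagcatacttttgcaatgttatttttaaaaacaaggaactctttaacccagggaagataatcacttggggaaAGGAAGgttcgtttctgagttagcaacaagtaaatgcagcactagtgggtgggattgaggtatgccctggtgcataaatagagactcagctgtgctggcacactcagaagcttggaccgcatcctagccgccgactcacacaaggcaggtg
FCGBP promoter, chr19:39934585-39934884, minus strand: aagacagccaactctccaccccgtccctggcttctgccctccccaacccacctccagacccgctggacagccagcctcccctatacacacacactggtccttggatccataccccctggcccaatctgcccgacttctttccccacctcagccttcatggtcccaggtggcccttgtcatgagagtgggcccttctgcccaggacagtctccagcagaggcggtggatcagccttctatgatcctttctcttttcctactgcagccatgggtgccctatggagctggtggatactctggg
TM4SF1 promoter, chr3:149377600-149377899, minus strand: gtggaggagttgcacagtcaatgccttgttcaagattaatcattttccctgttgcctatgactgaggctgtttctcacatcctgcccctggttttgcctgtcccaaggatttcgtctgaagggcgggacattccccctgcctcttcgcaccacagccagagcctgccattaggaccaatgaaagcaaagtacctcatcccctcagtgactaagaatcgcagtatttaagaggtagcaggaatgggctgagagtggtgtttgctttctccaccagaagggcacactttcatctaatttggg
PIGR promoter, chr1:206946417-206946716, minus strand: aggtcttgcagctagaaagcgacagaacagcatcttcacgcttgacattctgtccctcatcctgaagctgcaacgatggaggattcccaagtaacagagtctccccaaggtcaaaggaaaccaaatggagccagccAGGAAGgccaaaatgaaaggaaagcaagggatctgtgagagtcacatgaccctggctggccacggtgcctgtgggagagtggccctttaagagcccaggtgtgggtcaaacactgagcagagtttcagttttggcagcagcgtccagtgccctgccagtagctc

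AGGAAG was found once in the AGR2 window, 101 bases upstream of the start, and once in the PIGR window, 114 bases upstream. The FCGBP, TM4SF1 and MUC4 windows did not hold it, and the LCN2 window held it 224 bases upstream. Of 16814 windows of tested genes, 32.1% held AGGAAG on either strand, so 3 of 6 windows is a description of these letters and not a binding site. Some genes have several windows among the 16814, while a single window was read for each of the 6 genes here. The general ETS core CCGGAA, whose GGAA follows a C where that of AGGAAG follows an A, was in none of the 6 windows and in 26.5% of the windows of tested genes. The AP-1 motif TGANTCA was found once, in LCN2, 52 bases upstream (5.04% of windows), and the forkhead motif TGTTTAC in none (2.61%).

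Position on the chromosome was examined next. Within 500 kb of the 8 genes, 107 other genes were tested and 1 passed the threshold. Over all genes tested 0.401% passed, so nothing about position is read from this count. The gene that passed was CP, which encodes the copper-carrying plasma protein ceruloplasmin and lies 147 kb from TM4SF1. CP stood at 54.2 and 59.5 CPM in the ETV5_OE libraries, against 2.61 and 3.48 CPM in the Control libraries (log2 fold change 4.23, SE 0.22, adjusted p = 0.000824). TM4SF18, a family member 35.4 kb from TM4SF1 on the same side as CP, had 2 and 30 counts in ETV5_OE and 20 and 23 counts in Control, and its groups overlapped (log2 fold change -0.35, SE 0.99). The syndecan gene SDC4, 70.7 kb from SLPI, stood at 197 and 186 CPM in ETV5_OE and at 75.9 and 105 CPM in Control (log2 fold change 1.09, SE 0.18, adjusted p = 0.0603). Of the 4 neighbours tested around AGR2, TSPAN13 at 7.28 kb had a log2 fold change of 0.48 (SE 0.14, adjusted p = 0.410). In the reference genome AGR2 lies 2800 kb from ETV1, on the same chromosome, and the arrangement in LNCaP was not examined.

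**Figure D4:**
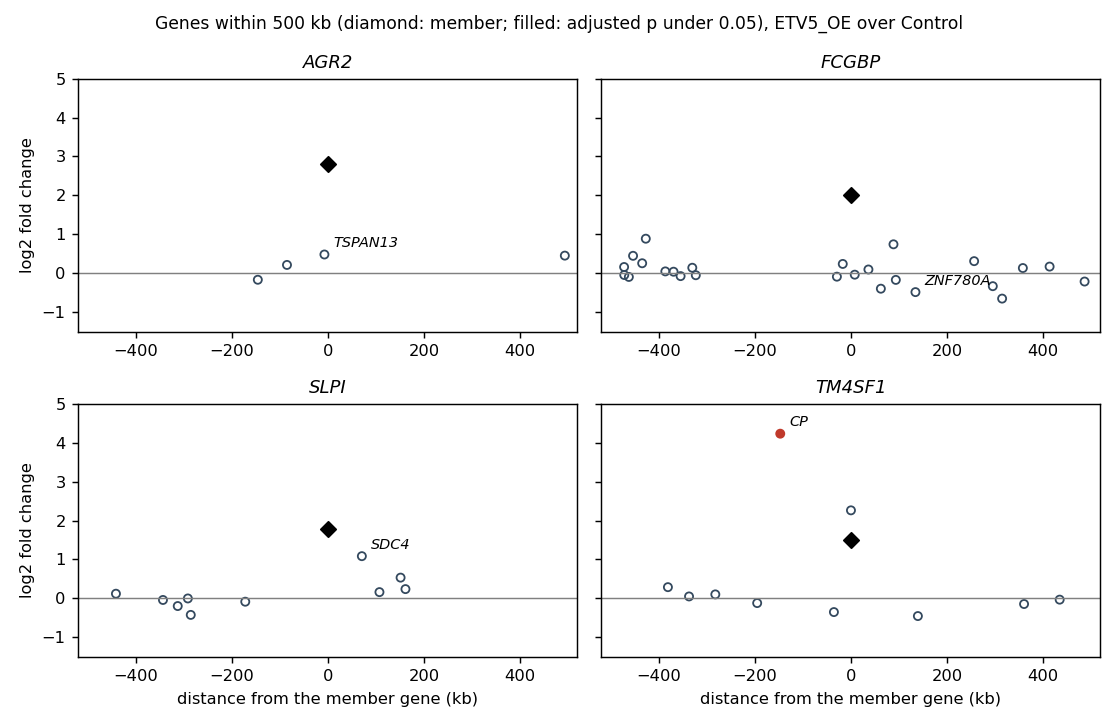
Log2 fold change of ETV5_OE over Control (vertical axis) of the genes within 500 kb of AGR2, FCGBP, SLPI and TM4SF1, against their distance in kb from that gene (diamond at 0). The filled point is CP, 147 kb from TM4SF1, and the name in each panel is the gene with the smallest p.

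The wider mucosal pathway was followed with 7 lists holding 175 other genes, of which 98 were tested. None of the 98 passed with edgeR in either direction, and 11 had an unadjusted p under 0.05. Over all genes tested, 0.401% passed and 7.14% had an unadjusted p under 0.05, so a count of 0 among 98 is near the share over all genes. Their median log2 fold change was -0.01, against 0.00 over all genes tested.

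Of the enzymes that build mucin O-glycans, 23 of 33 were tested, with a median log2 fold change of 0.00. The sialyltransferase ST6GALNAC4 stood at 32.9 and 45.0 CPM in ETV5_OE and at 21.1 and 16.8 CPM in Control (log2 fold change 1.04, SE 0.22, adjusted p = 0.147). The core branching enzyme GCNT1 had 34.8 and 34.4 CPM in ETV5_OE, against 47.1 and 65.5 CPM in Control (-0.70, SE 0.19, adjusted p = 0.335). GALNT7, another enzyme of this list, had a log2 fold change of -0.58 (SE 0.18).

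AGR2 is a disulfide isomerase, and all 22 genes listed as other disulfide isomerases or folding factors were tested. Their log2 fold changes had a median of 0.04 and a range of -0.42 to 0.54. The oxidase ERO1A had a log2 fold change of 0.54 (SE 0.16, adjusted p = 0.409), the isomerase P4HB 0.38 (SE 0.15) and the membrane-bound TMX3 -0.24 (SE 0.13). The value of AGR2 was larger, but AGR2 was chosen with earlier results of these libraries in view. Nothing is therefore read from that difference.

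Mucosal defence secretions gave 12 tested genes of 41 listed, with a median log2 fold change of 0.11. The complement factor CFB stood at 15.6 and 20.7 CPM in ETV5_OE and at 10.3 and 11.5 CPM in Control (0.74, SE 0.22, adjusted p = 0.417). The antimicrobial subunit S100A9 stood at 1.97 and 2.71 CPM in ETV5_OE, against 0.848 and 0.954 CPM in Control (1.38, SE 0.47, adjusted p = 0.525). REG4, a secreted lectin, was at 1.11 (SE 0.69).

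The transcription factors of secretory epithelia gave 13 tested genes of 23, with a median of -0.12. KLF4, a factor of differentiating epithelium, stood at 15.9 and 13.5 CPM in ETV5_OE, against 18.3 and 23.4 CPM in Control (log2 fold change -0.50, SE 0.21, adjusted p = 0.688). The epithelial ETS factor ELF3 stood at 105 and 151 CPM in ETV5_OE, against 103 and 91.4 CPM in Control (0.40, SE 0.19).

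Of 19 other mucins and mucin-like proteins, PODXL, EMCN and CD164 were tested and stood at -0.33 (SE 0.17), 0.12 (SE 0.98) and -0.01 (SE 0.15). The gel-forming mucin MUC5B was listed but too low to test, at 0.269 and 0.417 CPM in ETV5_OE and 0.457 and 0.239 CPM in Control. Tetraspanins and the TM4SF family had a median of -0.13 over 10 genes, with TSPAN15 at 0.52 (SE 0.17), TSPAN13 as given and CD9 at -0.22 (SE 0.16). Binding partners and processing enzymes of the mucosal genes had a median of -0.07 over 15 genes and a range of -0.19 to 0.18, led by the sheddase ADAM10 at -0.19 (SE 0.14), SLC22A17 at -0.18 (SE 0.17) and FURIN at -0.17 (SE 0.18).

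**Figure D5:**
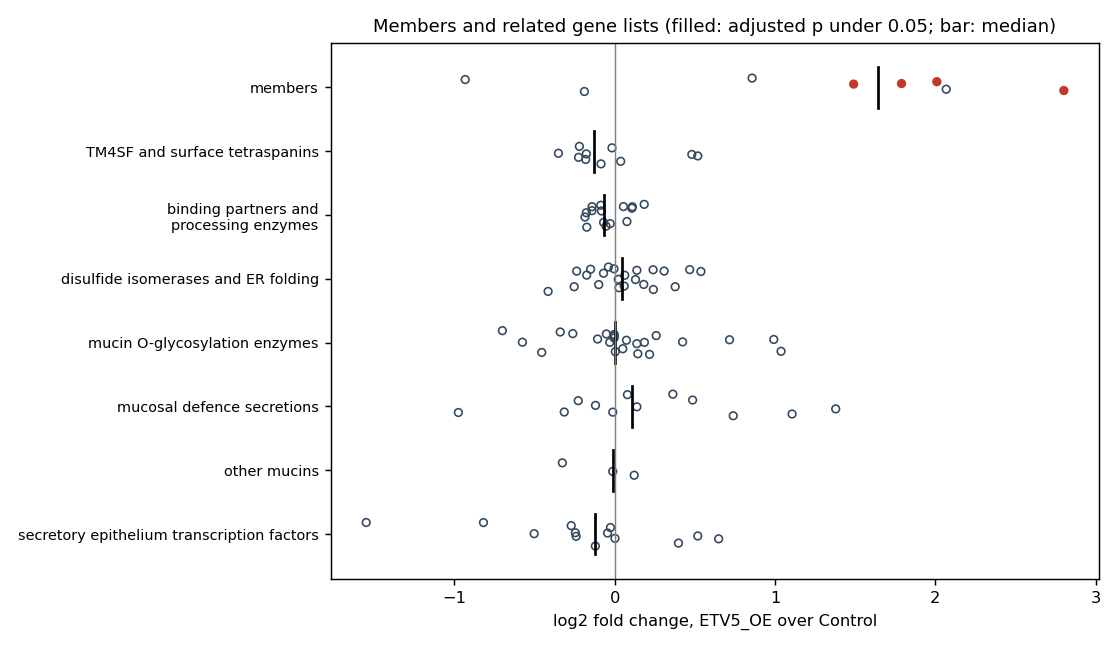
Log2 fold change of ETV5_OE over Control (horizontal axis) of each tested gene in the mucosal group and in the 7 related lists. Bars are medians and filled points passed an adjusted p of 0.05. The 4 filled points, from 1.49 to 2.80, are AGR2, FCGBP, SLPI and TM4SF1, and no list gene is filled.

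Markers of other cells were read beside these values. Of 4 club and airway secretory markers KRT7 was tested, at 0.583 and 0.459 CPM in ETV5_OE and 0.652 and 0.620 CPM in Control, and of 5 goblet markers ZG16, at 0.269 and 0.334 CPM in ETV5_OE and 0.750 and 0.429 CPM in Control. Of 7 immune markers, HLA-DRA and CD68 were tested, and their summed level was 24.7 and 34.6 CPM in the ETV5_OE libraries against 9.49 and 12.4 CPM in the Control libraries. HLA-DRA passed as higher (log2 fold change 2.11, SE 0.24, adjusted p = 0.0147). PTPRC, CD3E, CD79A, LYZ and CD14 were not analysed here. The part of other cells in the values of the mucosal genes was not tested. Of 6 neuroendocrine markers, ENO2 and SYP were tested and neither passed. ENO2 stood at 10.9 and 9.60 CPM in ETV5_OE, against 22.1 and 15.4 CPM in Control (log2 fold change -0.87, SE 0.24, adjusted p = 0.345), and SYP at 0.986 and 1.59 CPM in ETV5_OE, against 1.73 and 0.907 CPM in Control. Of 8 stromal and endothelial markers, 5 were tested, while DCN, LUM and PECAM1 were not analysed here. The 5 summed to 93.8 CPM in ETV5_OE replicate 1 and 18.4 CPM in ETV5_OE replicate 2, against 28.3 and 17.6 CPM in the Control libraries. Their log2 fold changes ran from -0.51 to 4.42, and none had an unadjusted p under 0.05 with edgeR.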

How the data were processed

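Per the labels' protocols, TRIzol was used to isolate RNA, a TruSeq RNA kit to prepare libraries, and a NovaSeq instrument to sequence paired ends. HISAT2, StringTie, Trimmomatic and the hg38 build are named, per the submitters' processing notes, without version, role or strand setting. Per the file headers, the deposited table holds raw read counts per gene and FPKM values for each library. The authors also deposited group means that follow a log2 scale, with a signed linear fold and an unadjusted p-value from a test not given in the sources used here. Genes listed have at least 1 read in every library.

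Differences in counts were tested in edgeR 4.0.16, under R 4.3.3 (default filter with a minimum count of 10, TMM scaling, robust quasi-likelihood F test, Benjamini-Hochberg adjustment over 16194 genes, threshold 0.05), a step tested on simulated data. Each SE is the size of the log2 fold change over the square root of F. Alternatives were DESeq2 1.42.0, RLE scaling, no filter, no robust estimation, limma 3.58.1 on log2(FPKM + 1) and log2(FPKM + 0.1) for genes at FPKM 1 in 2 libraries or without that filter, a block for the replicate number, and each library left out in turn. Gene positions came from RefSeq, matched by gene ID for 17561 genes (98.1%). The named genes are the members, ETV5, the called and the 3 smallest-p genes of each list, and called or adjoining neighbours within 500 kb; 1 gene under this rule is not reported here. TM4SF1-AS1, TM4SF18, SDC4, MUC5B, ETV1 and TSPAN13 as a neighbour were named after their values were seen. The members and lists were chosen with earlier results of these data known.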

Additional observations from a re-analysis of the deposited data

How the results depend on the processing

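AGR2, FCGBP, SLPI, TM4SF1, PIGR and LCN2 kept a positive log2 fold change and MUC4 a negative one in every alternative that tested them. The count of genes called moved from 65 to 232 with DESeq2, 22 without robust estimation, 13 (log2(FPKM + 1)) and 12 (log2(FPKM + 0.1)) in limma, and 0 in limma on log2(FPKM + 1) without a filter (1207 at an unadjusted p under 0.05). It ran from 4 to 259 over the fits that left out 1 library. Of the mucosal genes, 4 were called, against 1, 1 and 0 in those limma fits (5 at an unadjusted p under 0.05 in each), AGR2 being the 1, with an adjusted p of 0.0501 where none passed. The number ran from 0 to 6 when 1 library was left out, with 5 at an unadjusted p under 0.05 in the edgeR fit that called 0. SLPI was not called without robust estimation (adjusted p = 0.0617). MUC20 changed sign, at 0.11 without ETV5_OE replicate 1 and 0.30 without Control replicate 2, and ran from -0.59 to 0.30 over these fits; none of its values passed. The cause of these changes was not tested. RLE scaling gave 65 calls and no filter 56. The labels do not say that replicate numbers pair libraries, and the deviations of same-numbered libraries from their group means correlated at 0.0187 over 16194 genes. With the replicate block, 55 genes were called and 5 of the mucosal genes, PIGR among them (log2 fold change 2.19, adjusted p = 0.0204). That block set 50E-1 with con-1R and 50E-1R with con-2. It does not follow the letter R in these names, whose meaning is not given. Depth limits MUC4 most, at 23 to 64 counts per library.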
